A study of Mus musculus with 71 samples.

Results

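The comparison described here asks where loss of GLP and loss of G9a had different effects in the mouse hippocampus. It was the difference between the log2 change with GLP loss and the log2 change with G9a loss, taken for every gene with a symbol that is measured on the arrays. Its means come from 15 of the 71 arrays of the series, all hybridised with total RNA of whole hippocampus, while the error of the tests was estimated over 59 whole-tissue arrays of 4 brain regions, these 15 included. The groups were 4 arrays of Camk2a-Cre; GLPfl/fl mutants, 4 of their GLPfl/fl controls, 4 of Camk2a-Cre; G9afl/fl mutants and 3 of their G9afl/fl controls. In both mutants the floxed alleles are cut by Cre recombinase under the Camk2a promoter, which is active in excitatory neurons of the forebrain after birth. Glia, vessels, ependyma, choroid plexus and most interneurons in the dissected tissue therefore keep the enzyme. Controls were littermates matched by age and sex that carry the floxed alleles without Cre. Mice were 10 to 14 weeks old according to the series design and 12 weeks old according to the extraction protocol.

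GLP (gene Ehmt1) and G9a (gene Ehmt2) are paired SET domain methyltransferases that act as a heterodimer and add the first and second methyl group to histone H3 at lysine 9 in euchromatin. The dimethyl mark is associated with silent genes, and loss of either enzyme in other mouse cells lowers it. Setting the losses side by side asks whether a gene responds to both in equal measure.

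All values below are log2 of the deposited GCRMA intensity, on which 0 is the median of an array. The hippocampal label was checked with subfield markers. In the GLP and G9a hippocampal controls, 12 dentate granule cell genes averaged 4.55 and 4.82, and 15 CA pyramidal genes averaged 4.63 and 4.90. In the controls of hypothalamus, striatum and cortex the dentate genes averaged 2.07 to 2.75 and the pyramidal genes 2.52 to 3.44. Arrays of the 4 hippocampal groups correlated at 0.970 to 0.997 across probe sets. Xist and Y-linked genes marked all 8 GLP arrays as female, while the G9a mutants held 2 female and 2 male arrays and the G9a controls 1 female and 2 male arrays. A fit with sex as a covariate is given beside the counts.

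Each deletion was visible in its own target. Ehmt1 had log2 intensities of 1.93, 1.47, 1.67 and 1.55 in GLP mutants, against 2.25, 2.22, 2.27 and 2.18 in GLP controls. It had 2.24, 2.38, 2.43 and 2.36 in G9a mutants, against 2.09, 2.28 and 2.28 in G9a controls. The GLP mutants lay below all other arrays for Ehmt1, and only the GLP groups were apart from each other. The GLP change of -0.58 passed the test (limma, adjusted p = 8.83e-04) and the G9a change of 0.14 did not (limma, adjusted p = 0.781). The difference between them was -0.71 ± 0.17 (SE), with an adjusted p of 0.0546 that missed the threshold of 0.05.

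Ehmt2 had 4.68, 4.93, 4.86 and 4.94 in GLP mutants, against 5.00, 5.08, 4.88 and 4.99 in GLP controls. It had 3.88, 4.21, 4.10 and 4.31 in G9a mutants, against 5.46, 4.95 and 5.47 in G9a controls. Only the G9a groups were apart. Ehmt2 changed by -0.13 with GLP loss and fell by 1.17 with G9a loss, and the difference of 1.03 ± 0.20 passed (limma, adjusted p = 0.00714). A second, dimmer probe set of Ehmt2 changed by -0.15 with GLP loss and -0.53 with G9a loss, a difference of 0.38 ± 0.29 (SE). The sources used here do not say whether a probe set of either gene lies in the floxed part.

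Few genes differed between the losses. Of 12112 genes tested, 19 passed at an adjusted p of 0.05 (0.157% of genes tested), 10 with a positive difference (0.0826%) and 9 with a negative one (0.0743%). At an unadjusted p of 0.05 there were 591 genes (4.88%), 205 with a positive (1.69%) and 386 with a negative difference (3.19%). By comparison, 243 of 11685 genes passed with GLP loss (2.08%), 206 of them rising (1.76%) and 37 falling (0.317%). With G9a loss 324 of 11741 passed (2.76%), 268 rising (2.28%) and 56 falling (0.477%). Across the 12112 genes the changes with the 2 losses had a Pearson correlation of 0.591, given as a description, since genes are no independent replicates. The difference was over 1 log2 unit in size for 115 genes (0.949%), and the median 95% interval reached 0.397 to either side.

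The count of 19 moved with single arrays. It was 8 without G9a control 2, 39 without GLP mutant 4 and 30 without GLP control 1. It was 9 to 12 without GLP mutant 1, 2 or 3, GLP control 3 or G9a mutant 1. With the error estimated from the 4 hippocampal groups alone it was 7, 6 of them among the 19. With sex as a covariate it was 23, holding all 19, but in the female arrays alone it was 7, 4 of them among the 19. With the mean of the choroid plexus markers as a covariate it was 6, all among the 19. All 18 of the 19 genes that have a name kept their sign in each of the 12 alternative settings that gave them a value. Of these 18, 6 passed whichever array was left out, namely Gprc5d, Tshz2, Pla2g5, Ido2, Ehmt2 and Nudt7, and the other 12 all lost their call without G9a control 2. Of the same 18, 5 passed with the hippocampal groups alone (Gprc5d, Tshz2, Ehmt2, Scara5 and Smim22), 5 with the choroid covariate (Gprc5d, Tshz2, Pla2g5, Ido2 and Ehmt2) and 3 in the female arrays alone (Gprc5d, Pla2g5 and Ehmt2).

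**Figure D1:**
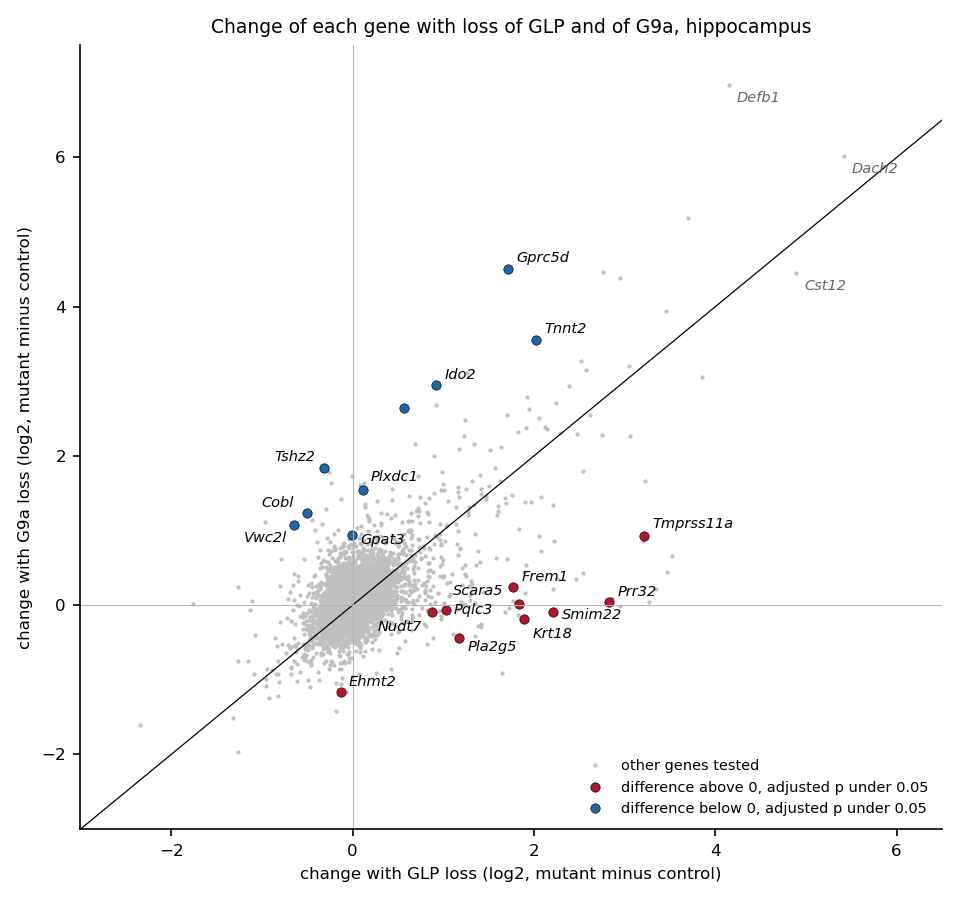
Log2 change with GLP loss (x axis) against log2 change with G9a loss (y axis), mutant minus control, for the 12112 genes tested in hippocampus. The black line marks equal change. The 10 red genes lie below it and the 9 blue genes above it at an adjusted p under 0.05, and Dach2, Cst12 and Defb1 mark genes that rose with both losses.

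Promoters of 3 of the differing genes and of Dach2, which rose with both losses, are shown because CG dinucleotides, the sites of DNA methylation, are dense in some promoters and sparse in others. The windows run from 250 bases before to 50 bases after a RefSeq start in GRCm38.p6, on the strand of the gene, with every CG in capitals. They lie at chr6:135118234-135118533 (minus strand, Gprc5d), chr2:169632259-169632558 (plus strand, Tshz2), chr4:138863420-138863719 (minus strand, Pla2g5) and chrX:113297260-113297559 (plus strand, Dach2), each spanning the annotated gene start.
Gprc5d: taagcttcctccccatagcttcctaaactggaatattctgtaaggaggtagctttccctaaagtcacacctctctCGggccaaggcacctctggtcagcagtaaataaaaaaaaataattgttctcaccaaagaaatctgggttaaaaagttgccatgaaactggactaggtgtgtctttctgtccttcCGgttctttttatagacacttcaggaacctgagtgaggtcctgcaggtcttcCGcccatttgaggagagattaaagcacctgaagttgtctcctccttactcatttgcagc
Tshz2: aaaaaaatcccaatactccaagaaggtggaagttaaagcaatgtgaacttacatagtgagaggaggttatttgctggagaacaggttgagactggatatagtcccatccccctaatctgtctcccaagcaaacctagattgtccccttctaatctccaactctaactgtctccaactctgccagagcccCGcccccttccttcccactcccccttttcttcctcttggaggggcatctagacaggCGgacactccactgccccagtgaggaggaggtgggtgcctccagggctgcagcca
Pla2g5: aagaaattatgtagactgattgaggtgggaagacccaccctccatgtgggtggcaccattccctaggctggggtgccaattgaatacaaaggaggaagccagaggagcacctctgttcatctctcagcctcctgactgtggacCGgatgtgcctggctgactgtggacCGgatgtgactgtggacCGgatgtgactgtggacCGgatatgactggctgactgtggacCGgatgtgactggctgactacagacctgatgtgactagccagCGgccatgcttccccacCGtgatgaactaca
Dach2: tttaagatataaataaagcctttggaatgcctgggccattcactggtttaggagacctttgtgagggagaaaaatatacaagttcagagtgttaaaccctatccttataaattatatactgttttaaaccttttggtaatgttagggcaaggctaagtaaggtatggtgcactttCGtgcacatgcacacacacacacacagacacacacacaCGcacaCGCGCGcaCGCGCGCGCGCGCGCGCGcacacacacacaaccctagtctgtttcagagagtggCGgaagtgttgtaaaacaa

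Gprc5d held 3 CG dinucleotides in this window, Tshz2 2, Pla2g5 7 and Dach2 15, most of them in a run of alternating C and G. CG reads the same on both strands, so 1 count serves both. Pla2g5 and Dach2 have 2 annotated starts each, and the first listed is shown. Promoters were matched for 15 of the genes that differed, with a median of 6, and for 11 of the genes listed below as changed by both losses, with a median of 8. Over all 27025 windows the median was 7, and 94.2% held at least 1 CG.

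Gprc5d, an orphan receptor of the class C G protein-coupled family that is best known from hair follicles and plasma cells, showed the smallest p of all genes. It had log2 intensities of -1.21, -2.49, -1.03 and -2.25 in GLP mutants, against -3.42, -3.45, -3.42 and -3.55 in GLP controls. It had 1.16, 1.00, 0.95 and 0.68 in G9a mutants, against -3.64, -3.40 and -3.65 in G9a controls. Mutants stood above controls in both pairs, and the G9a mutants were the only arrays above the array median. The change was 1.71 with GLP loss, where the gene was too dim to be tested, and 4.51 with G9a loss (limma, adjusted p = 1.01e-22). The difference was -2.80 ± 0.29 (SE), with a 95% interval of -3.38 to -2.22 (limma, adjusted p = 7.39e-09). This error was pooled with the other regions, where the group means of -3.75 to -2.89 lay close to background. Over the alternative settings the adjusted p was at most 0.0307 (limma). Its relatives Gprc5a, Gprc5b and Gprc5c had differences of -0.12, 0.06 and 0.02, and only Gprc5b of these was bright enough to be tested.

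Ido2, a tryptophan-degrading dioxygenase of the kynurenine pathway, had the same layout. It had -0.98, -1.44, -1.93 and -0.68 in GLP mutants, against -2.15, -2.22, -2.10 and -2.23 in GLP controls. It had 0.19, 0.81, 1.86 and 1.73 in G9a mutants, against -1.80, -1.69 and -1.94 in G9a controls. Again both pairs were apart and the G9a mutants alone exceeded the array median. The change was 0.92 with GLP loss, not tested, and 2.95 with G9a loss, a difference of -2.03 ± 0.35 (SE, limma, adjusted p = 8.69e-04). Of the other kynurenine genes, Tdo2, the hepatic and dentate tryptophan dioxygenase, rose by 1.57 with GLP loss and 1.83 with G9a loss, and their difference was -0.26 ± 0.49 (SE). Of the 11 kynurenine genes measured, 4 were tested and 1, Ido2, passed, against 0.157% of all genes tested. The list was chosen with earlier results known, so the count is a description only.

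For Gprc5d and Ido2 the size of the difference depends on values under the array median. Both genes entered the test through the G9a mutants alone, the group where they are high. With values below the median set to it, the differences were -0.95 for Gprc5d and -1.15 for Ido2, and both passed. Pla2g5, Scara5 and Pqlc3, described below, entered the test through the GLP mutants alone, the group where these are high. Krt18, Frem1, Tmprss11a and Prr32 lay under the median in 10 of 15 arrays. For genes that entered through 1 group alone, the filter and the difference rest on the same arrays.

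A second set of genes rose with G9a loss and did not pass with GLP loss, and lay above the array median in all 15 arrays except for Gpat3, which was under it in 1. Tshz2, a zinc finger homeobox transcription factor of the teashirt family, had 3.03, 2.01, 1.90 and 2.93 in GLP mutants, against 2.28, 2.97, 3.04 and 2.82 in GLP controls. It had 4.18, 3.40, 4.08 and 4.31 in G9a mutants, against 2.41, 2.00 and 2.03 in G9a controls. The GLP groups overlapped, while every G9a mutant lay above every other array. The change was -0.31 with GLP loss and 1.84 with G9a loss, a difference of -2.15 ± 0.33 (SE, limma, adjusted p = 1.82e-04). The other 2 probe sets of Tshz2 gave differences of -1.94 and -1.89. Tshz3 and Tshz1, the other teashirt factors, had differences of -1.24 (limma, adjusted p = 0.40) and 0.16.

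Cobl, the actin nucleator cordon-bleu that shapes dendrites, had 1.14, 0.25, 1.03 and 1.68 in GLP mutants, against 1.28, 1.26, 1.84 and 1.71 in GLP controls. It had 2.32, 1.91, 1.37 and 1.81 in G9a mutants, against 0.70, 0.20 and 0.94 in G9a controls. Only the G9a groups were apart. The changes were -0.50 with GLP loss and 1.24 with G9a loss, a difference of -1.74 ± 0.32 (SE, limma, adjusted p = 0.0044). A dimmer probe set of Cobl gave 0.26. The call ended in the female arrays alone (limma, adjusted p = 0.11), where Tshz2 and Ido2 lost theirs too (limma, adjusted p = 0.497 and 0.522).

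Vwc2l, a secreted protein with von Willebrand factor C domains, Plxdc1, a plexin domain transmembrane protein first described in tumour vessels, and Gpat3, an acyltransferase of glycerolipid synthesis, behaved likewise. Vwc2l averaged 0.88 in GLP mutants and 1.53 in GLP controls, and 2.11 in G9a mutants and 1.04 in G9a controls, a difference of -1.72 ± 0.35 (SE). The G9a arrays of Vwc2l overlapped, since G9a control 1 reached 1.98 and G9a mutant 2 had 1.50. Plxdc1 changed by 0.11 with GLP loss and rose by 1.55 with G9a loss, and Gpat3 changed by 0.00 with GLP loss and rose by 0.94 with G9a loss. A dimmer probe set of Plxdc1 gave a difference of 0.15. The differences of -1.43 for Plxdc1 and -0.94 for Gpat3 passed (limma, adjusted p = 0.0155 and 0.0439). In the female arrays alone, with 2 G9a mutants and 1 G9a control, these became -1.14 for Plxdc1, -0.73 for Gpat3 and -0.90 for Vwc2l, and none of the 3 passed.

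**Figure D2:**
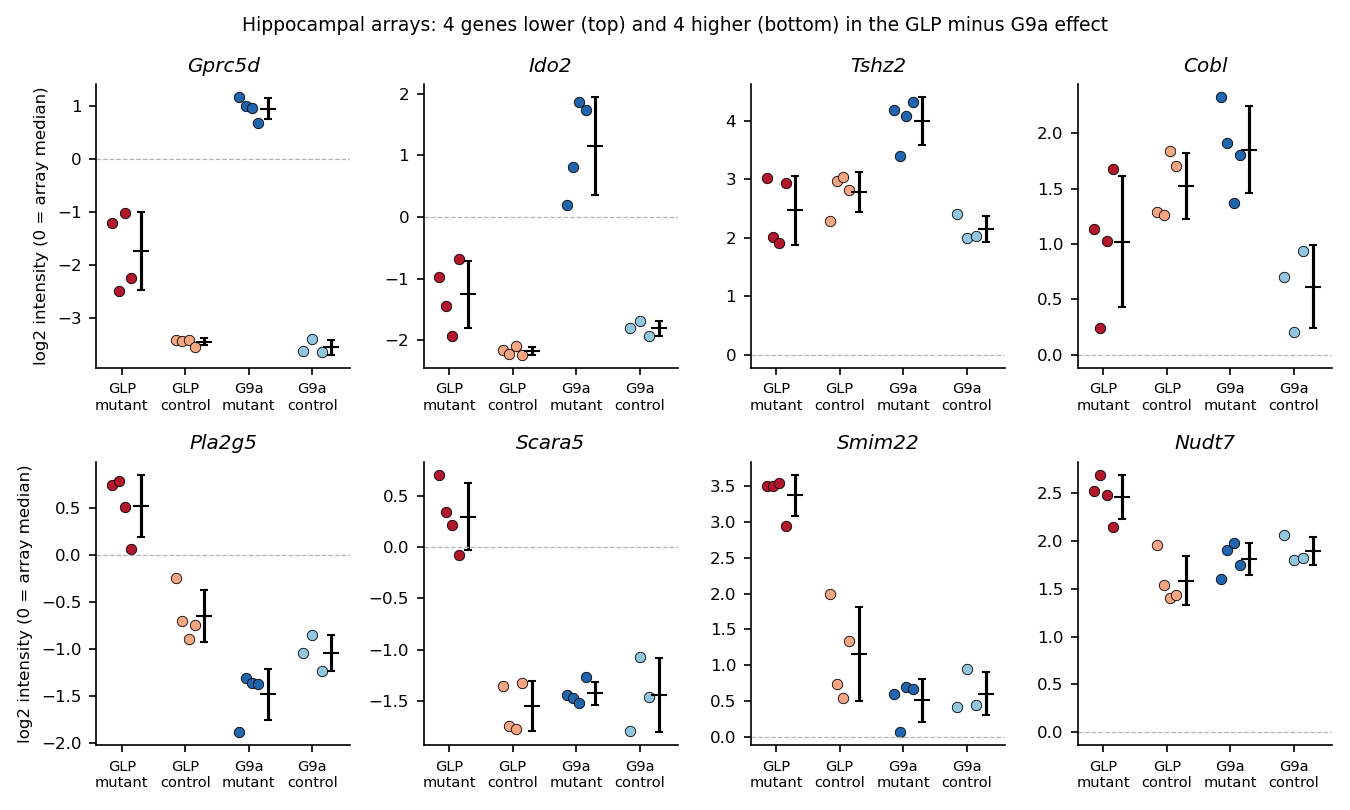
Log2 intensity (0 is the array median) of 8 genes in each hippocampal array, with the group mean and SD as a bar beside the points. In the top row the G9a mutants alone are raised or are raised most, and in the bottom row the GLP mutants stand above the other 3 groups.

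Gprc5d and Ido2, described above, were raised in both mutants but were not tested with GLP loss. Among genes tested for each loss, Tnnt2, cardiac troponin T of the thin filament, was the 1 gene that rose with both and still differed. It had 2.75, 1.93, 2.29 and 2.99 in GLP mutants, against 0.23, -0.08, 0.64 and 1.08 in GLP controls. It had 3.21, 2.35, 2.38 and 2.75 in G9a mutants, against -0.82, -1.04 and -0.79 in G9a controls. The mutants of the 2 lines overlapped, and the controls did not. The rise was 2.02 with GLP loss and 3.56 with G9a loss, and the difference of -1.54 ± 0.35 passed narrowly (limma, adjusted p = 0.0495). With values under the array median raised to it the difference was -0.67, and the call was lost (limma, adjusted p = 0.947). A second bright probe set gave -1.60 and a dim one 0.095.

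Of the 31 sarcomere genes measured, 6 rose with GLP loss and 7 with G9a loss, against 1.76% and 2.28% of all genes, and their median difference was 0.09, against 0.006 over all genes. Beside Tnnt2, the heavy chain gene Myh1 rose by 2.76 with GLP loss and 4.46 with G9a loss, a difference of -1.70 that did not pass (limma, adjusted p = 0.895). The cardiac heavy chain gene Myh6 went the other way, with changes of 1.65 with GLP loss and -0.90 with G9a loss (difference 2.55, limma, adjusted p = 0.0544). The titin gene Ttn had changes of 1.35 and -0.41. Pgam2, the muscle phosphoglycerate mutase, rose by 1.63 with GLP loss and 1.67 with G9a loss.

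In the other direction, 9 genes beside Ehmt2 had the larger change with GLP loss, and for all 9 the GLP mutants stood apart from their controls. Pla2g5, a secreted phospholipase A2 that frees fatty acids from phospholipids, had 0.74, 0.78, 0.50 and 0.06 in GLP mutants, against -0.25, -0.71, -0.89 and -0.75 in GLP controls. It had -1.88, -1.31, -1.37 and -1.37 in G9a mutants, against -1.04, -0.85 and -1.23 in G9a controls. The G9a arrays were apart in the opposite direction, all of them under the array median, so that Pla2g5 was not tested with G9a loss. The change was 1.17 with GLP loss (limma, adjusted p = 4.88e-06) and -0.44 with G9a loss, a difference of 1.61 ± 0.26 (SE, limma, adjusted p = 2.16e-04). With values under the array median raised to it the difference was 0.52 and passed. Of the other 10 secreted phospholipase A2 genes measured, Pla2g2c alone was bright enough to be tested, with a difference of 0.26.

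On the probe set used, Nudt7, a peroxisomal hydrolase of coenzyme A, was above the array median in all 15 arrays. It had 2.52, 2.69, 2.48 and 2.15 in GLP mutants, against 1.96, 1.54, 1.41 and 1.44 in GLP controls. It had 1.60, 1.91, 1.97 and 1.75 in G9a mutants, against 2.06, 1.80 and 1.82 in G9a controls. The GLP mutants exceeded every other array and the G9a groups overlapped. The rise of 0.88 with GLP loss and the change of -0.09 with G9a loss gave a difference of 0.96 ± 0.19 (SE, limma, adjusted p = 0.00912). Dimmer probe sets of Nudt7, under the array median on average, gave differences of 0.77, 0.52 and 0.06. The call was lost with the hippocampal groups alone, with the choroid covariate and in the female arrays alone (limma, adjusted p = 0.160, 0.123 and 0.113).

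Scara5, a scavenger receptor that binds ferritin, had 0.70, 0.34, 0.22 and -0.08 in GLP mutants, against -1.35, -1.74, -1.77 and -1.32 in GLP controls. It had -1.44, -1.47, -1.51 and -1.26 in G9a mutants, against -1.79, -1.07 and -1.46 in G9a controls. Only the GLP groups were apart. The changes were 1.84 and 0.02, and the difference of 1.82 ± 0.37 (SE) passed (limma, adjusted p = 0.0124). It was 0.31 and did not pass with values under the array median raised to it (limma, adjusted p = 0.371). A dimmer probe set of Scara5 gave 0.08. Pqlc3, a membrane protein with PQ-loop repeats, had a similar layout, with changes of 1.03 and -0.07 and a difference of 1.10 ± 0.23 (SE, limma, adjusted p = 0.0155). It was 0.56 with values under the array median raised to it, and the call was lost with the hippocampal groups alone, the replicate block, the choroid covariate and the female arrays alone (limma, adjusted p = 0.424, 0.0657, 0.206 and 0.714).

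The remaining 5 were Krt18, Frem1, Smim22, Tmprss11a and Prr32. Krt18, a keratin of simple epithelia, had 1.86, 1.66, 1.29 and 0.71 in GLP mutants, against 0.46, -0.69, -0.97 and -0.85 in GLP controls. Its G9a arrays ran from -1.37 to -0.68 in mutants and from -1.09 to -0.27 in controls and overlapped. Frem1, a basement membrane protein, averaged 1.03 in GLP mutants and -0.74 in GLP controls, and -0.04 in G9a mutants and -0.29 in G9a controls. Smim22, a small membrane protein, averaged 3.37 in GLP mutants and 1.16 in GLP controls, and 0.51 and 0.61 in G9a mutants and G9a controls. A dimmer probe set of Smim22 gave a difference of 0.23.

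Tmprss11a, a membrane-anchored serine protease of epithelia, rose by 3.22 with GLP loss and changed by 0.93 with G9a loss. Prr32, a proline-rich protein, rose by 2.83 with GLP loss and changed by 0.04 with G9a loss. The differences were 2.08 for Krt18, 1.53 for Frem1, 2.31 for Smim22, 2.29 for Tmprss11a and 2.79 for Prr32, with limma adjusted p of 0.0207 for Frem1 and Smim22 and 0.0495 for the other 3. In the GLP controls, control 1 was the highest for all 5, at 0.46 for Krt18, -0.53 for Frem1, 2.00 for Smim22, 0.45 for Tmprss11a and 0.21 for Prr32. With the choroid plexus mean as a covariate the differences were 1.31 for Krt18, 1.11 for Frem1, 1.18 for Smim22, 1.39 for Tmprss11a and 1.28 for Prr32, and none of the 5 passed.

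**Figure D3:**
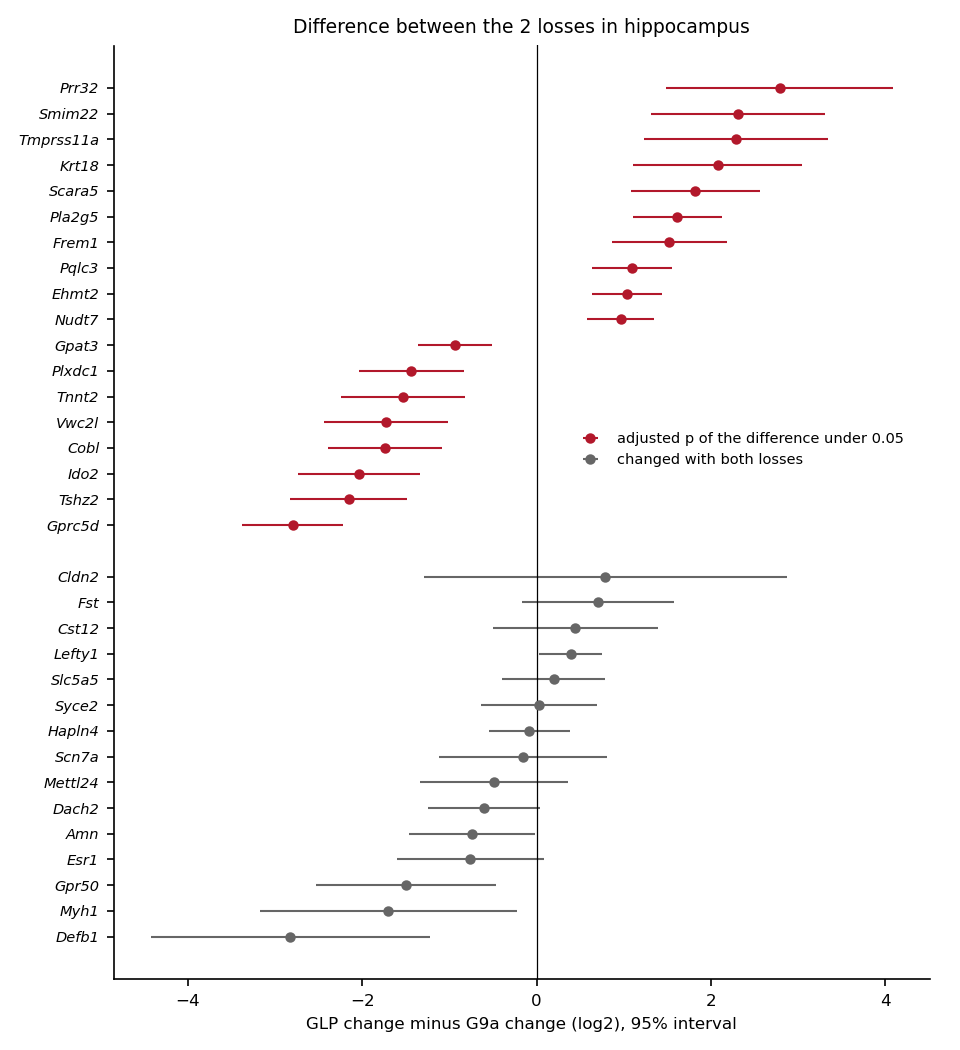
Difference between the log2 change with GLP loss and that with G9a loss (x axis), with its 95% interval, for the 18 named genes that passed (red) and for 15 genes called in the same direction with both losses that did not (grey). Red intervals lie clear of 0 on both sides, while most grey intervals hold 0.

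Choroid plexus, the secretory epithelium of the ventricles that lies against the hippocampus, is a tissue that the dissection can take along. Its genes moved with GLP loss. Of 20 choroid markers measured out of 22 listed, 15 rose with GLP loss, against 1.76% of all genes, and 1, Cldn2, with G9a loss, against 2.28%. In the fit reported here no marker passed the test of the difference. Of the 18 tested, 11 had an unadjusted p under 0.05 (limma) with a positive difference, against 1.69% of all genes. The median change over the 20 was 2.24 with GLP loss and 0.35 with G9a loss, and 19 of 20 differences were above 0, against 51.2% of all genes. The mean of the markers was 3.78, 3.61, 3.55 and 3.00 in GLP mutants, against 2.25, 0.58, 0.52 and 1.94 in GLP controls. It was 0.87, 0.50, 0.53 and 0.30 in G9a mutants, against 0.12, -0.08 and 0.03 in G9a controls. The GLP mutants were above all other arrays, and GLP controls 1 and 4 stood above GLP controls 2 and 3. In bulk tissue fewer cells of a type and less RNA per cell cannot be told apart, and the same holds for more.

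Single markers showed how uneven these arrays were. The folate receptor gene Folr1 had 4.76, 4.76, 4.83 and 3.94 in GLP mutants, against 2.96, -0.49, -0.46 and 2.42 in GLP controls. It had 0.34, -0.47, -0.69 and -1.56 in G9a mutants, against -0.67, -1.47 and -0.97 in G9a controls. The G9a groups overlapped, and the GLP controls fell into a high and a low pair. The difference of 3.02 had a 95% interval of 0.95 to 5.09 (limma, adjusted p = 0.50). The water channel gene Aqp1 and the coagulation factor gene F5 had differences of 3.13 and 3.22. The potassium channel genes Kcne2 and Kcnj13 had 2.86 and 1.56, and none of these passed. With values under the array median raised to it, Folr1, Aqp1, F5 and Kcne2 had 3.14, 1.88, 2.12 and 2.81. All of these then passed (limma, adjusted p = 0.0261, 0.00931, 0.00259 and 1.66e-04). Kcnj13 had 2.12 in that setting and did not pass (limma, adjusted p = 0.886). Ttr, transthyretin and the most abundant of the markers, averaged 10.0 in GLP mutants and 9.18 in GLP controls, and its difference was -0.43 ± 1.55 (SE).

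The 12 ependymal genes, of the ciliated lining of the ventricles, had a median difference of 0.84, with 11 above 0 and none passing. Of them 3 rose with GLP loss, Mia, Dynlrb2 and Rsph1, and none with G9a loss, against 1.76% and 2.28% of all genes. The 18 meningeal and fibroblast genes lay the other way, with a median difference of -0.46 and 3 above 0. Of these 1, Igf2, rose with GLP loss and 4 with G9a loss, namely Fmod, Col1a2, Lum and Ptgds, against 1.76% and 2.28% of all genes. The mean of the meningeal genes was 2.85, 1.83, 2.37 and 2.76 in GLP mutants, against 2.34, 2.25, 2.31 and 2.22 in GLP controls. It was 1.46, 1.82, 1.90 and 2.96 in G9a mutants, against 1.02, 1.41 and 1.53 in G9a controls, so that both pairs overlapped. The part of these tissues in the differences was not tested. The covariate fit cannot decide it, since the choroid mean was itself higher in every GLP mutant than in all other arrays. In that fit Plxdc1 and Tnnt2 lost their calls with differences of -1.365 and -1.454, close to those without the covariate.

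**Figure D4:**
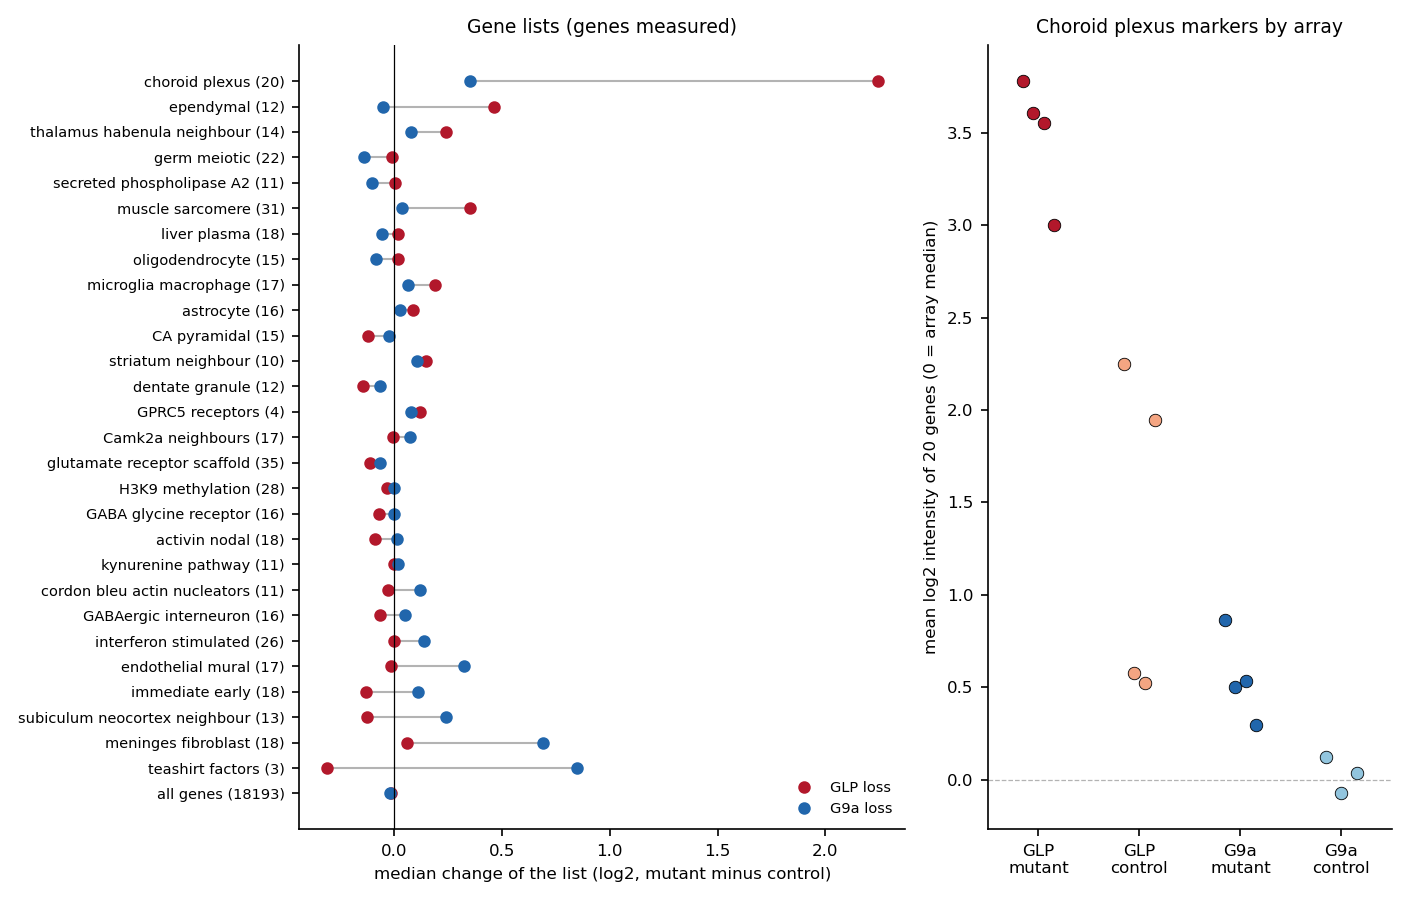
Left, median log2 change of each gene list with GLP loss (red) and G9a loss (blue), with the number of genes measured in brackets. Right, mean log2 intensity of 20 choroid plexus markers in each hippocampal array, where the GLP mutants range from 3.00 to 3.78 and the GLP controls from 0.52 to 2.25.

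Among genes tested for each loss, 88 rose with both, with a median of 1.28 with GLP loss and 1.43 with G9a loss, and 1 of them, Tnnt2, differed. The rises were within 1 log2 unit of each other for 82 of the 88, as were the changes of 11997 of all 12112 genes, and they were larger with GLP loss for 33. A further 17 fell with both, with medians of -0.68 and -0.86, and none differed. No gene rose with one loss and fell with the other.

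Dach2, a dachshund transcription cofactor, had 5.28, 5.35, 5.25 and 5.19 in GLP mutants, against 0.27, -0.22, -0.15 and -0.48 in GLP controls. It had 5.20, 5.08, 4.96 and 5.13 in G9a mutants, against -0.48, -1.68 and -0.61 in G9a controls. Mutants of the 2 lines overlapped and all stood far above the controls. The rises were 5.42 and 6.02, and their difference of -0.60 had a 95% interval of -1.24 to 0.04. Cst12, a cystatin protease inhibitor gene of the testis, rose by 4.89 with GLP loss and 4.45 with G9a loss, with an interval of -0.50 to 1.39 for the difference. Mettl24, a methyltransferase-like gene, and Scn7a, which encodes a sodium sensor channel, had differences of -0.49 and -0.16.

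For other shared genes the interval leaves room for a difference. Defb1, an antimicrobial defensin, rose by 4.15 with GLP loss and 6.97 with G9a loss, and the difference of -2.83 had an interval of -4.42 to -1.23 but did not pass after adjustment (limma, adjusted p = 0.217). Its mutants overlapped, at 2.66 to 3.43 with GLP loss and 3.21 to 3.89 with G9a loss, while GLP control 4 alone reached 1.67. Gpr50, an orphan relative of the melatonin receptors, rose by 3.70 with GLP loss and 5.19 with G9a loss with an interval of -2.53 to -0.46. Esr1, oestrogen receptor alpha, rose by 2.52 and 3.27 with an interval of -1.60 to 0.09.

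Of the genes that fell with both, Amn, the amnionless membrane protein, fell by 2.35 with GLP loss and by 1.61 with G9a loss. Fst, follistatin, which binds activin, fell by 1.26 with GLP loss and by 1.97 with G9a loss, and the nodal inhibitor gene Lefty1 fell by 0.82 with GLP loss and by 1.21 with G9a loss. Their differences were 0.71 and 0.39 and did not pass. The iodide transporter gene Slc5a5, the meiotic gene Syce2 and the perineuronal net gene Hapln4 had differences of 0.20, 0.03 and -0.08, with 95% intervals of -0.39 to 0.79, -0.63 to 0.70 and -0.55 to 0.38.

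Most genes that passed with 1 loss and not the other did not pass the test of the difference. Of 118 genes that rose in the GLP test alone, 7 differed, and of 180 that rose in the G9a test alone, 8 differed, against 0.157% of all genes tested. These counts are a description, since the genes were grouped by the same arrays. The median change of the 118 was 0.98 with GLP loss and 0.25 with G9a loss, and 99 had the same sign in both. The medians of the 180 were 0.21 with GLP loss and 0.71 with G9a loss, and 142 had the same sign, against 7164 of all 12112 genes. Of the genes that fell, none of 20 in the GLP test alone and 1 of 39 in the G9a test alone, Ehmt2, differed. The 2 other genes that differed, Scara5 and Pqlc3, were too dim to be tested for either loss.

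Among these, Tyrp1, a melanosome enzyme gene, had -0.02, 0.46, 0.32 and -0.94 in GLP mutants, against -2.87, -3.44, -2.68 and -3.01 in GLP controls. It had 2.08, 2.60, 1.40 and 2.19 in G9a mutants, against -2.60, -2.03 and -2.33 in G9a controls. Both pairs were apart, although only the G9a change of 4.39 could be tested, and the difference of -1.43 did not pass (limma, adjusted p = 0.861). The T cell costimulator gene Icos and the aldehyde dehydrogenase gene Aldh3a1 had differences of -0.87 and -1.86. Fbp1, fructose bisphosphatase of gluconeogenesis, came close with -1.77 (limma, adjusted p = 0.0546). With values under the array median raised to it, Tyrp1, Icos and Aldh3a1 had differences of -1.87, -0.83 and -0.83. All of these then passed (limma, adjusted p = 1.01e-10, 4.54e-08 and 0.0322). Fbp1 had -0.37 in that setting and did not pass (limma, adjusted p = 0.52). Card10, a scaffold of NF-kappaB signalling, fell by 1.26 with GLP loss and changed by -0.75 with G9a loss. The netrin gene Ntn5 fell by 1.11 with GLP loss and changed by 0.05 with G9a loss, a difference of -1.16 that did not pass (limma, adjusted p = 0.153).

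The lists of neuronal genes held no gene that passed the test of the difference. Of all genes tested 0.157% passed, so lists of this size can hold none without standing out. None of the 33 glutamate receptor and scaffold genes tested, the 14 GABA and glycine receptor genes, the 12 dentate genes or the 15 CA pyramidal genes passed, and their median differences were -0.07, -0.08, -0.03 and 0.03. Of the 25 tested genes of H3K9 methylation, Ehmt2 alone passed. The demethylase gene Kdm3b fell with both losses, by 0.41 with GLP loss and by 0.38 with G9a loss, with a difference of -0.03 ± 0.15 (SE).

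Immediate early genes, which neurons induce within minutes of activity, had a median difference of -0.33 over 18 genes, and none passed. The transcription factor gene Fos changed by -0.13 with GLP loss and rose by 1.43 with G9a loss, a difference of -1.56 (limma, adjusted p = 0.542). Dusp1, a phosphatase of MAP kinases, changed by -0.05 and rose by 0.79. Npas4, an activity-dependent transcription factor, and Ier2 had differences of -1.73 and -1.06. Genes of neighbouring cortex and subiculum had a median of -0.35 over 13 genes, with 2 above 0, against 51.2% of all genes. Of the 12 tested none passed, and 3 had an unadjusted p under 0.05 (limma) with a negative difference, against 3.19% of all genes. None had one with a positive difference. Ccn2 had the largest difference, -2.08 (limma, adjusted p = 0.493). Cux2, a marker of upper cortical layers, changed by 0.04 with GLP loss and rose by 1.04 with G9a loss. No interferon-stimulated gene of 20 tested, no astrocyte gene of 16 and no oligodendrocyte gene of 15 passed, against 0.157% of all genes tested. Their median differences were -0.13, 0.06 and 0.07.

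The same comparison was made in 3 other brain regions, whose means come from other arrays and whose error comes from the fit they share with the hippocampus. Between the losses 1 of 12040 genes differed in hypothalamus (0.00831%), 1 of 11878 in striatum (0.00842%) and 2 of 11899 in cortex (0.0168%, with 0.0084% in either direction). Ehmt2 was called in all 3, with differences of 1.05, 1.05 and 1.65. The other cortical gene was Cap1, a regulator of actin, at -1.70, which did not differ in hippocampus (-0.06). At an unadjusted p of 0.05 the counts were 1026, 771 and 121, and leaving out G9a mutant 2 of the hypothalamus gave 223 adjusted calls there.

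The 17 named hippocampal genes other than Ehmt2 had differences of -0.27 to 0.86 in hypothalamus, -0.58 to 1.12 in striatum and -0.46 to 0.45 in cortex. The sign matched that in hippocampus for 11, 9 and 9 of them, and none passed among the 10, 10 and 11 that could be tested. Cortex had only 2 G9a mutant and 2 G9a control arrays, with a median SE of 0.231 against 0.197 in hippocampus. A moderated F test of the difference across the 4 regions passed for 3 of 12957 genes (0.0232%), and Gprc5d was the only 1 of the 17 among them (limma, adjusted p = 8.21e-06). For the other 16 the smallest adjusted p was 0.114, that of Pla2g5, so a difference between regions was not shown for these.

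Gprc5d averaged between -3.75 and -2.89 in all 12 groups of the other regions, and its largest change there was 0.12. Tnnt2 rose with both losses everywhere, by 1.98 with GLP loss and 1.65 with G9a loss in hypothalamus, 2.38 and 2.50 in striatum, and 2.17 and 1.95 in cortex. Tmprss11a changed by 2.75 with GLP loss and rose by 2.98 with G9a loss in cortex, and it rose by 1.79 with GLP loss and changed by 0.67 with G9a loss in striatum. Frem1 rose by 1.20 with GLP loss in hypothalamus and changed by 0.35 with G9a loss there.

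**Figure D5:**
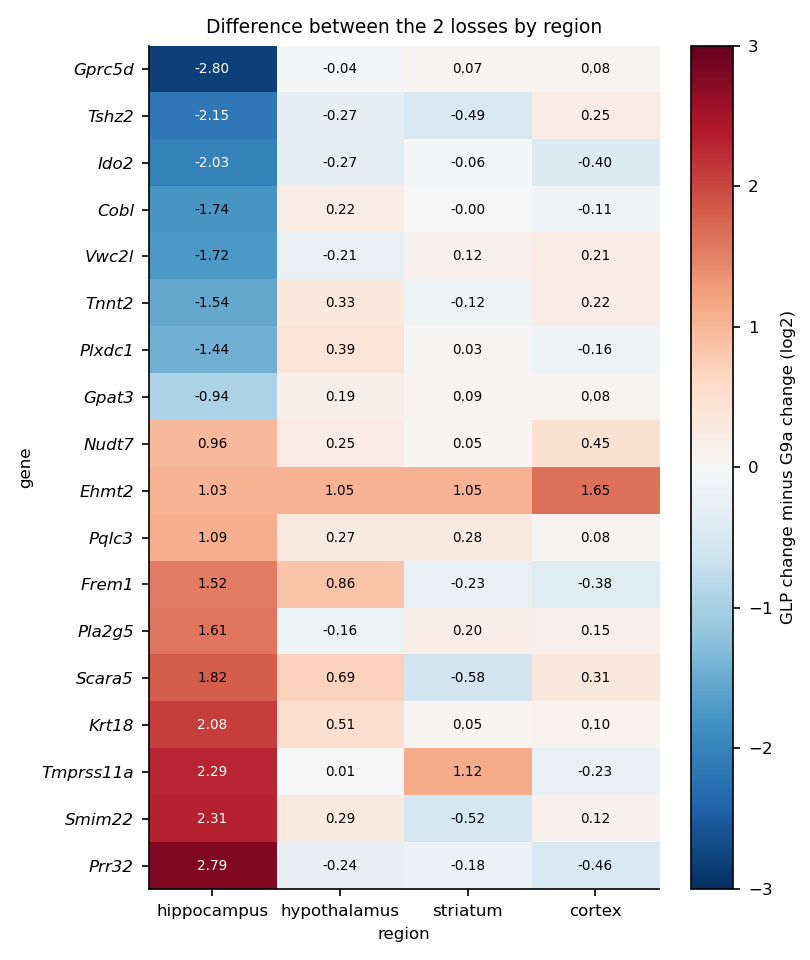
Difference between the log2 change with GLP loss and that with G9a loss for the 18 named hippocampal genes (down) in each of 4 regions (across). Ehmt2 is positive in all 4 regions, from 1.03 to 1.65, and Gprc5d is at -2.80 in hippocampus and between -0.04 and 0.08 elsewhere.

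Each mutant was compared with its own controls, and the controls of the 2 lines were not alike for every gene. For 16 of the 18 genes the gap between GLP and G9a mutants was larger than that between GLP and G9a controls. The mutant arrays of the 2 lines were apart for 14 genes and the control arrays for 5, namely Ido2, Cobl, Pqlc3, Frem1 and Tnnt2. The genes were selected on the difference of these gaps in the same arrays, so the counts are a description and no test. For Gprc5d the mutant means differed by -2.69 and the control means by 0.11. For Tnnt2 the mutant means differed by -0.18 and the control means by 1.35, and for Cobl by -0.83 and 0.91. The gaps between mutants and between controls were close in size for Plxdc1 (-0.72 and 0.71) and Gpat3 (-0.48 and 0.46). Of the 18 genes, 9 lay under the array median in at least 10 of the 15 arrays, where GCRMA values come from probes close to background, and 7 lay above it in all.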

How the data were processed

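Total RNA of whole hippocampus was measured on Affymetrix arrays of 45101 probe sets. The authors deposited linear intensity values, made with GCRMA per the submitters' processing notes, with no version stated there, and scaled so that each array's median is 1. Here log2 of the deposited intensity was taken. For each gene the probe set with the highest average across the 59 whole-tissue arrays was kept (18193 genes). A gene was tested where enough of the compared arrays had log2 over 0, a minimum set by the smallest group. This minimum was 3 for the hippocampal difference and for G9a loss, and 4 for GLP loss. It was 4 for hypothalamus and striatum, and 2 for cortex and the F test. A model of all 16 whole-tissue groups was fitted with limma 3.58.1 in R 4.3.3 (lmFit, eBayes with an intensity trend), with Benjamini-Hochberg adjustment over all genes tested at 0.05. "Not tested" marks genes under the filter, whose estimates come from a fit without it. The scripts were tested on simulated data. The labels call the arrays biological replicates, and the sources used here do not say if 1 animal gave several regions. The number of arrays limits the precision.

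Named genes were all those passing the difference, those of largest change that passed with both losses (10 rises, 6 falls) or with 1 (6 rises, 3 falls), and up to 3 tested genes per list with the largest difference. Gprc5a, Gprc5c, Kdm3b, Dusp1, Pgam2, Cap1 and the genes named for counts of 5 or fewer were chosen after their values were seen. Clone names were counted only. The members and lists were chosen with earlier results of these data known. Alternatives were the compared groups alone, a floor, other filters, quantile normalization, every probe set, no trend, array weights, the replicate block, sex or the choroid mean as a covariate, and each array left out. The fit of female arrays alone was chosen after seeing the data.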

Additional observations from a re-analysis of the deposited data

Results flagged for a closer look

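The difference between GLP loss and G9a loss passed the limma test itself for each of the following genes. It was -2.80 for Gprc5d, -2.15 for Tshz2, -2.03 for Ido2, -1.74 for Cobl, -1.72 for Vwc2l, -1.54 for Tnnt2, -1.43 for Plxdc1 and -0.94 for Gpat3, all larger with G9a loss. It was 2.79 for Prr32, 2.31 for Smim22, 2.29 for Tmprss11a, 2.08 for Krt18, 1.82 for Scara5, 1.61 for Pla2g5, 1.53 for Frem1, 1.10 for Pqlc3 and 0.96 for Nudt7, all larger with GLP loss. Ehmt2, the deleted gene of the G9a line, had 1.03. A cDNA clone without a gene name had -2.08. The F test across the 4 regions gave 24.87 for Gprc5d and 14.53 for that clone.

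In 10 of 144 groups of 4 arrays, over 48 genes, 1 array stood apart by Dixon's ratio at the 95% level, and chance gives about 1 in 20 groups. GLP mutant 4 was the low array for Smim22 (2.94), Tmprss11a (1.49), and Folr1 (3.94), and it stood apart for Slc5a5 (1.41). GLP mutant 1 stood apart for Cst12 (1.88) and GLP mutant 2 for Esr1 (4.08). G9a mutant 1 was low for Pla2g5 (-1.88), G9a mutant 2 high for Frem1 (0.30) and low for Smim22 (0.069), and G9a mutant 3 stood apart for Ntn5 (-1.93). GLP mutant 4 also had the lowest choroid plexus mean of the GLP mutants, 3.00 against 3.55 to 3.78 in the other 3, and its part in these values was not tested.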

How the results depend on the processing

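All 18 named genes kept their sign under every alternative that gave them a value, and over all genes named, 2917 values under an alternative kept their side of the threshold, 143 lost it, 40 gained it and none reversed. The 19 calls of the hippocampal difference became 7 with the compared groups alone (6 shared), 56 with values under the array median raised to it (17 shared), 37 without a filter (19 shared), 5 with a filter at 4 times the median, 131 with array weights (19 shared) and 6 with the choroid mean as a covariate. They became 7 in the female arrays alone (4 shared), a setting chosen after seeing the data. They ranged from 8 to 39 with 1 array left out. Quantile normalization, every probe set, no trend and sex as a covariate gave 22, 17, 27 and 23. The 243 calls with GLP loss became 126 with the stricter filter, 801 with array weights and 75 with the choroid mean, and 177 to 240 with 1 array left out. The 324 calls with G9a loss became 188 with the compared groups alone, 158 with the stricter filter and 708 with array weights, and 192 to 363 with 1 array left out, the lowest without G9a control 2 and 211 without G9a mutant 4. The 1 call in hypothalamus became 0 with the compared groups alone, 27 with the floor, 5 without a filter, 8 with quantile normalization, 3 with every probe set, 535 with array weights and 3 with the choroid mean, and 0 to 223 with 1 array left out. The 1 call in striatum became 0 with the compared groups alone, 13 with the floor, 2 with every probe set and 14 with array weights, and 0 to 9 with 1 array left out. The 2 calls in cortex became 9 with the floor and 31 with array weights, and stayed at 2 with each array left out. The 3 calls across regions became 30 with the floor, 7 without a filter, 1 with the stricter filter and 83 with array weights, and 3 to 8 with 1 array left out. With the replicate number as a block the counts were 16 in hippocampus (13 shared), 4 in hypothalamus, 0 in striatum and 5 across regions. Mutant and control arrays of the same number had deviations correlated at 0.03 to 0.27 in the GLP line and -0.15 to 0.36 in the G9a line, so the numbers were not taken to pair the arrays. The cause of these shifts was not tested. Dim probes limit the folds, since values under the array median lie close to background.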

Other observations

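Lists of other cells and pathways held few genes with a different response, as did all genes tested, of which 0.157% passed. The 17 microglial and macrophage genes had a median difference of 0.06 and none passed, while 1 rose with GLP loss and 3 with G9a loss, against 1.76% and 2.28% of all genes. The 17 endothelial and mural genes had a median of -0.20, with 2 above 0, and the 16 interneuron genes -0.12, with 3 above 0. Genes of thalamus and habenula, which border the hippocampus, had a median of 0.16 over 14 genes, and striatal genes 0.00 over 10, with none passing.

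Among 18 genes of activin and nodal signalling the median difference was -0.09 and none passed. Of these, 2 fell with GLP loss, Fst and Lefty1, and 3 fell with G9a loss, the same pair and Inhba, a subunit gene of activin, against 0.317% and 0.477% of all genes. The 18 liver and plasma protein genes and the 22 germ cell and meiotic genes had medians of 0.09 and 0.11, and 4 of each list were bright enough to be tested. Of 8 tested genes of actin nucleation, Cobl alone passed, against 0.157% of all genes tested. This list too was chosen with earlier results known, so the count is a description only. Of Camk2a, whose promoter drives Cre, and its neighbours on the chromosome, 15 genes were tested and none passed, and their list had a median of -0.06. Of the 17 measured, 1, Arsi, rose with each loss, against 1.76% and 2.28% of all genes. Its rises were 2.62 with GLP loss and 2.55 with G9a loss.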
